A study of Homo sapiens with 14 samples.

Results

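The tRNA genes for the 2 acidic amino acids, aspartate and glutamate, and for their amides, asparagine and glutamine, are described here in T47D cells. They were chosen by name: nuclear genes of biotype tRNA in the RefSeq annotation of GRCh38.p14, on chromosomes 1 to 22 and X, whose symbol starts with TRD- (Asp), TRE- (Glu), TRN- (Asn) or TRQ- (Gln). This gave 68 of the 429 nuclear tRNA genes, with 13 for Asp, 15 for Glu, 21 for Asn and 19 for Gln, and 6 anticodons. T47D is an established line of human breast cancer cells with receptors for oestrogen and progesterone, and it is the single line of the study. Cultures received progesterone (P4) or its vehicle, ethanol, for 1 h, after which the progesterone receptor (PR) and POLR3A were mapped by chromatin immunoprecipitation sequencing. The lists hold no expression values, so the label of the line was not checked against markers. The labels list 3 replicate libraries for each antibody and treatment and 1 pooled input for each treatment. The lists of enriched regions came as 1 list for each antibody and treatment, so no value below has a replicate check and no p-value is given, and the spread between replicates, against which differences between lists would be judged, is not known. The depth of the libraries is unknown. On chromosomes 1 to 22 and X the lists held 29161 (POLR3A, vehicle), 47904 (POLR3A, P4), 38933 (PR, vehicle) and 111515 (PR, P4) regions. A gene counts as carrying a region when the region comes within 100 bp of it.

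Transfer RNA is made by RNA polymerase III, and POLR3A is its largest subunit. At a tRNA gene the polymerase is placed by the factor TFIIIC, which binds an A box and a B box inside the gene, and by TFIIIB, which TFIIIC seats just upstream. Since the promoter lies within the gene, copies with the same mature tRNA share these boxes and may or may not differ in their flanks. The flanks of copies were not compared here. In gene symbols the 3 letters after the hyphen are the anticodon, and genes with the same number after it have the same mature tRNA. PR is a nuclear receptor that binds DNA as a dimer when it holds progesterone, at an inverted pair of half-sites.

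The RefSeq promoter table of GRCh38.p14 holds windows for other genes that cover 2 of the 68 genes whole and 1 in part. They are shown because they differ in what the lists hold over them. TRN-GTT4-1 had a weak POLR3A region and TRN-GTT6-1 a stronger one, and TRQ-CTG7-1 was in no list. Capitals mark the anticodon and, in the Asn genes, the B box.
TRN-GTT4-1 (chr1:16889677-16889750, plus strand): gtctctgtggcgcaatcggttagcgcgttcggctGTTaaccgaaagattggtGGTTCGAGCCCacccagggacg
TRN-GTT6-1 (chr1:143735920-143735993, minus strand): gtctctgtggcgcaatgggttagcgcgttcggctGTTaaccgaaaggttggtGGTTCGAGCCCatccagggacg
TRQ-CTG7-1 (chr1:148328812-148328871, plus strand, the first 60 of 72 bases): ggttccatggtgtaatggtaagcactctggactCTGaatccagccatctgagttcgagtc
Both Asn genes hold the anticodon GTT at positions 35 to 37 and the B box (GGTTCGA, any 2 bases, CC) at positions 53 to 63, counted from 1 at the gene's 5′ end. They are identical at 71 of 74 positions, 95.9%, and differ by C17G, A47G and C65T from TRN-GTT4-1 to TRN-GTT6-1. On either strand, the B box letters occur in 65 of the 35116 promoter windows of the table, 0.185%. They were not found in the 60 bases of TRQ-CTG7-1, which stop short of the gene's 3′ end. Those 60 bases end in agttcgagtc. These bases match the box letters except for an A in place of the first G, and the last letter of the box was not read. TRQ-CTG7-1 thus holds a near match there and not the exact letters. Whether the near match acts as a B box was not tested. The POLR3A region over TRN-GTT4-1 had a −log10 q-value of 16.5 in the vehicle list and 12.3 in the P4 list. Over TRN-GTT6-1 it had 63.6 and 69.9. The −log10 q and the fold enrichment of a region are the authors' values, and they are used to rank and describe regions within a list, not to measure a change between lists.

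POLR3A was at most of the 68 genes, and PR was at a smaller share, all of it at genes that carried POLR3A. Under vehicle, 58 genes had a POLR3A region, 85.3%, beside 82.3% of all 429 tRNA genes. Under P4, 53 had one, 77.9%, beside 81.8% of all tRNA genes. This order turned among regions with a −log10 q of at least 10, which were at 46 genes under vehicle and 50 under P4. PR was at 14 genes in the vehicle list, 20.6%, beside 12.8% of all tRNA genes, and at 25 in the P4 list, 36.8%, beside 26.1%. Each of these 14 and 25 genes also had POLR3A in the same treatment, and the PR and POLR3A regions overlapped each other at all of them. Genes with both factors made up 12.8% of all tRNA genes under vehicle and 25.9% under P4. PR was at 12 genes in the P4 list and not in the vehicle list, 17.6%, beside 15.2% of all tRNA genes, and at 1 gene the other way, 1.47%, beside 1.86%. The surplus turned with the lists at equal length and stayed at equal limits of −log10 q. The PR P4 list was first shortened to the 38933 regions of the vehicle list. This left out every P4 region under a −log10 q of 7.39, while the vehicle list went down to 1.305. PR was then at 10 genes under P4 against 14 under vehicle, with 3 gained and 7 lost. With a limit of 5 in both lists, PR was at 16 genes under P4 and 4 under vehicle, with 12 gained and 0 lost. With a limit of 10 it was at 8 and 3, with 5 gained and 0 lost. Whether the 68 genes differ from other tRNA genes was not tested.

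By isotype, POLR3A was at 11 of 13 Asp, 14 of 15 Glu, 17 of 21 Asn and 16 of 19 Gln genes under vehicle, and at 8, 14, 16 and 15 of them under P4. PR was at 2 Asp, 2 Glu, 7 Asn and 3 Gln genes under vehicle, and at 6, 6, 8 and 5 under P4. The Asn genes thus held 7 of the 14 PR calls of the vehicle list. With regions under a −log10 q of 5 left out, the PR counts for Asp, Glu, Asn and Gln were 1, 0, 2 and 1 under vehicle and 4, 3, 6 and 3 under P4. Regions of the 2 antibodies stood at different heights of their lists. The median POLR3A region at the 68 genes lay at percentile 99.3 of its list under vehicle and 99.7 under P4, ranked by −log10 q, beside 99.5 and 99.7 for all tRNA genes. The median PR region lay at percentile 37.8 and 57.4, beside 31.1 and 59.7. POLR3A folds ran from 2.11 to 96.8 under vehicle with a median of 46.3, and PR folds from 2.74 to 22.8 with a median of 3.65. Under P4 the POLR3A folds ran from 2.69 to 79.8 with a median of 45.7, and the PR folds from 2.00 to 43.4 with a median of 3.98.

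**Figure D1:**
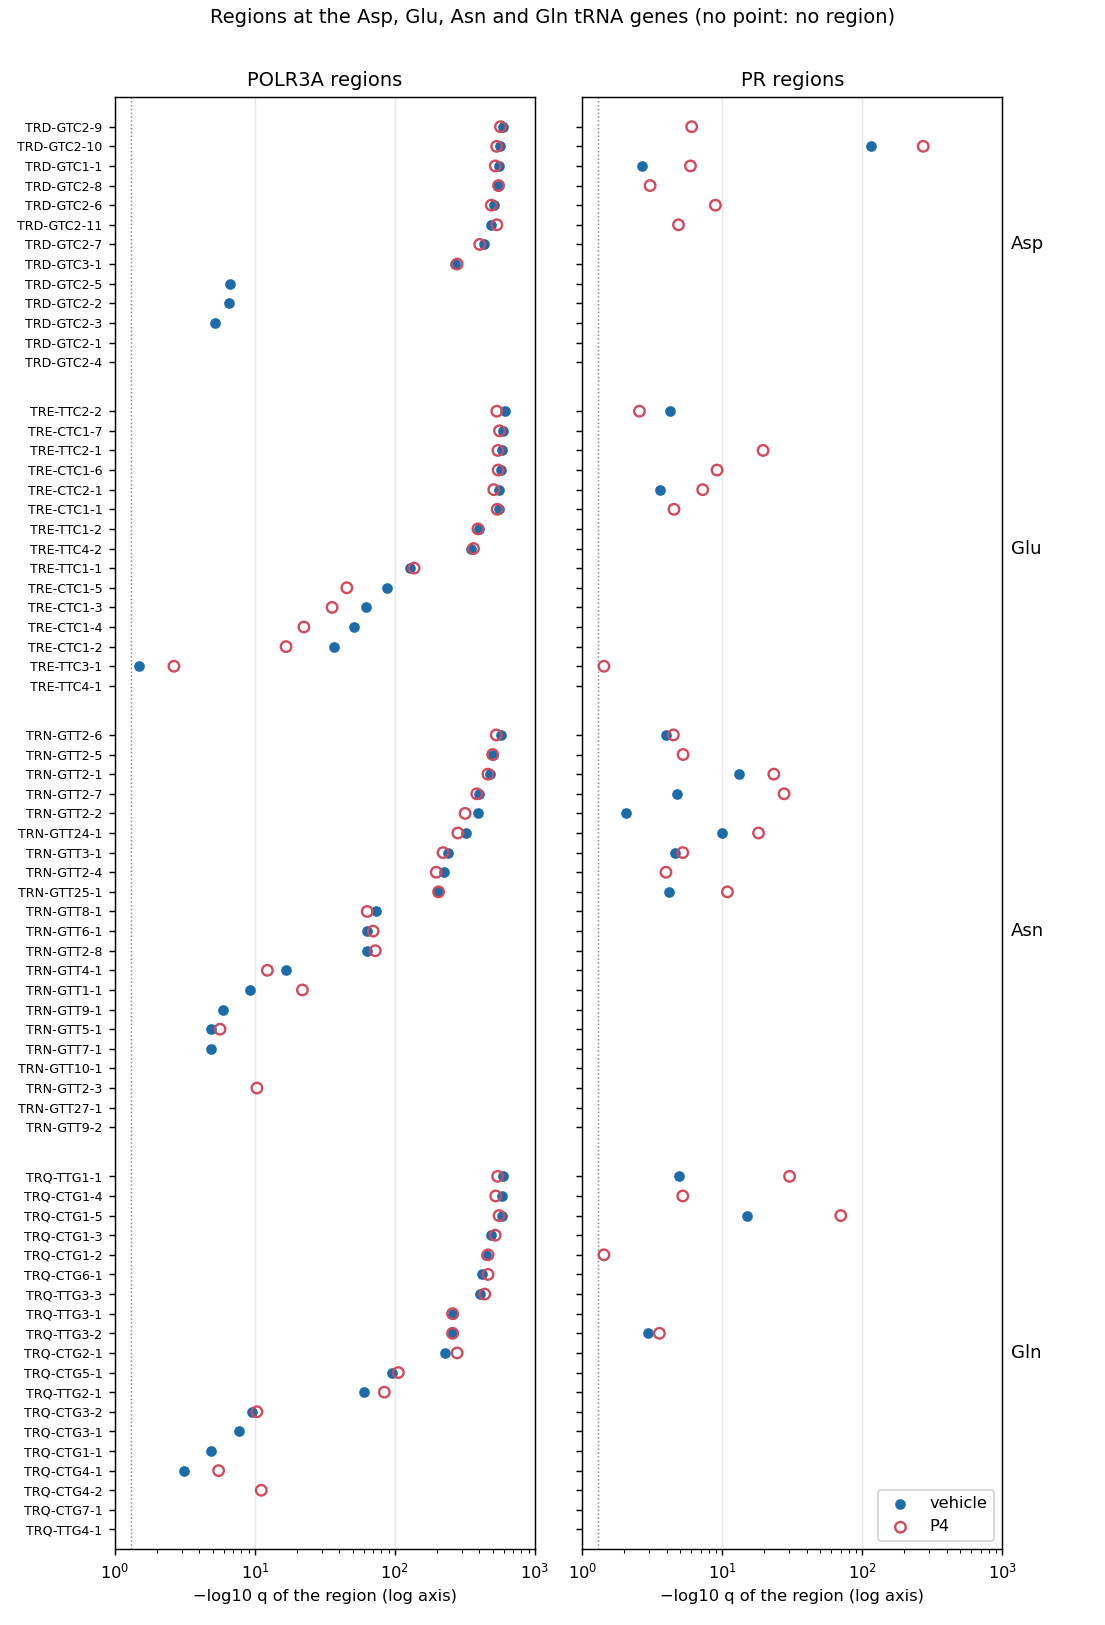
Each row is 1 tRNA gene, grouped by amino acid and ordered by the POLR3A vehicle value. The x axes give the −log10 q of the strongest region at the gene on a log scale, for POLR3A (left) and PR (right), with filled blue points for vehicle, open red points for P4, no point where the list has no region and a dotted line at the 0.05 limit. POLR3A values reach 609.2, while the highest PR value outside TRD-GTC2-10 is 70.2.

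Where a gene lies went with how strongly POLR3A covered it. Most members sit in 4 clusters. Cluster 1A holds 4 genes on chromosome 1 from 16520585 to 16889750. Cluster 1B holds 19 genes on chromosome 1 from 120844262 to 149740321, cluster 1C holds 12 on chromosome 1 from 161422093 to 161540314, and the cluster on chromosome 6, from 26311196 to 28982270, holds 13. The other 20 genes are spread over 7 other chromosomes and the rest of chromosomes 1 and 6. Over the genes with a region, the median POLR3A −log10 q under vehicle was 4.89 in cluster 1A (3 of 4 genes), 68.3 in 1B (14 of 19), 44.1 in 1C (10 of 12), 402.5 on chromosome 6 (13 of 13) and 560.9 at the spread genes (18 of 20). Under P4 these medians were 5.63 (3 genes), 138.7 (12), 35.6 (7), 403.2 (13) and 531.1 (18). All 13 genes of the chromosome 6 cluster had POLR3A under both treatments. PR under P4 was at 1 of 4 genes in cluster 1A, 6 of 19 in 1B, 0 of 12 in 1C, 4 of 13 on chromosome 6 and 14 of the 20 spread genes.

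The Asp genes, all with the anticodon GTC, fell into a strong and a weak group. The 8 genes outside cluster 1C had POLR3A values between 269.9 and 594.9 under vehicle and between 277.9 and 567.6 under P4. The 5 in cluster 1C had 5.14 to 6.64 at 3 genes under vehicle and no region at the other 2, and none of the 5 had a region under P4. The groups do not overlap. TRD-GTC2-9 (chromosome 12, 124927345 to 124927416) was highest under vehicle, but its region spans TRF-GAA1-4 as well, and the summit lay 13 bp from the midpoint of that Phe gene and 511.5 bp from that of the Asp gene. TRD-GTC2-10 (chromosome 12, 124939647 to 124939718), second of the Asp genes under vehicle with 564.6, had 532.8 under P4, below TRD-GTC2-9, TRD-GTC2-8 and TRD-GTC2-11. It had its summit 24.5 bp from its own midpoint in both lists.

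TRD-GTC2-10 also had the strongest PR region of the 68 genes in both lists. Its −log10 q was 115.2 under vehicle, with a fold of 22.8, and 272.7 under P4, with a fold of 43.4. These regions lay at percentile 96.9 and 99.2 of their lists, whereas the PR region of TRD-GTC1-1 (chromosome 12, 98503503 to 98503574), the only other Asp gene with PR under vehicle, had 2.68 and 5.92. The TRD-GTC2-10 regions were 961 and 2450 bp wide and covered TRA-TGC4-1, an Ala gene 248 bp away, and their summits lay 152.5 and 169.5 bp from the Asp gene's midpoint. The P4 summit lay nearer to the Ala gene, 149.5 bp from its midpoint. Of the Asp genes with PR in the P4 list alone, TRD-GTC2-6 had 8.92, TRD-GTC2-9 had 6.04, TRD-GTC2-11 had 4.87 and TRD-GTC2-8 had 3.05. A vehicle PR region with 133.7 lay 243 bp from TRD-GTC2-9, outside the 100-bp limit. The PR regions beside TRD-GTC2-6 and TRD-GTC2-11 reached the 100-bp flank and not the gene itself.

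The Glu genes read the anticodons CTC (8 genes) and TTC (7 genes). POLR3A was at all 8 CTC genes and at 6 of the 7 TTC genes in both lists. TRE-TTC2-2 (chromosome 15, 26082234 to 26082305) had the highest POLR3A value of all 68 genes under vehicle, 609.2, with 534.2 under P4. TRE-CTC1-7 (chromosome 6, 125780247 to 125780318) was the next Glu gene under vehicle, with 588.6, and the highest Glu gene under P4, with 558.3. These genes differ in PR: TRE-TTC2-2 had weak PR regions in both lists, 4.24 and 2.56, and TRE-CTC1-7 had none. The other Glu gene with PR in both lists was TRE-CTC2-1 (chromosome 1, 248874248 to 248874319), inside the protein-coding gene PGBD2, with 3.59 and 7.24. Its POLR3A region was shared with the Leu gene TRL-CAA4-1. Under vehicle the summit lay 18.5 bp from the midpoint of the Leu gene, and under P4 it lay 15.5 bp from that of TRE-CTC2-1. PR was in the P4 list alone at TRE-TTC2-1 (19.6), TRE-CTC1-6 (9.17), TRE-CTC1-1 (4.52) and TRE-TTC3-1 (1.43). For TRE-TTC2-1 this rests on the 100-bp limit, since a vehicle PR region with 5.64 lay 197 bp away, and its P4 summit lay 588.5 bp from the midpoint. TRE-TTC3-1 also had the weakest POLR3A regions of the 68 genes, 1.48 under vehicle and 2.64 under P4.

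Cluster 1C sets Glu and Asp genes side by side in a repeat. The starts of TRD-GTC2-1 to TRD-GTC2-5 follow each other by 7381 to 7418 bp, and those of TRE-CTC1-2 to TRE-CTC1-5 by 7380 to 7411 bp. All 4 Glu copies of the repeat had POLR3A in both lists. TRE-CTC1-5 had 87.7 and 45.3, TRE-CTC1-3 had 62.3 and 35.6, TRE-CTC1-4 had 51.3 and 22.4, and TRE-CTC1-2 had 37.0 and 16.7. The order of these copies by −log10 q was the same in both lists. By fold enrichment the top copy was TRE-CTC1-4 under vehicle, with 8.63 against 8.35 for TRE-CTC1-5. Under P4 it was TRE-CTC1-5, with 5.32 against 5.03 for TRE-CTC1-4. The 5 Asp copies had a −log10 q of at most 6.64, which was below every Glu copy. No PR region reached any of these 9 genes. TRE-TTC4-2 and TRN-GTT2-2, which lie before the repeat, had POLR3A values of 346.7 and 390.9 under vehicle and 363.9 and 317.2 under P4. How the authors treated reads that match several copies is not given in the sources used here, and its part in these values was not tested.

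**Figure D2:**
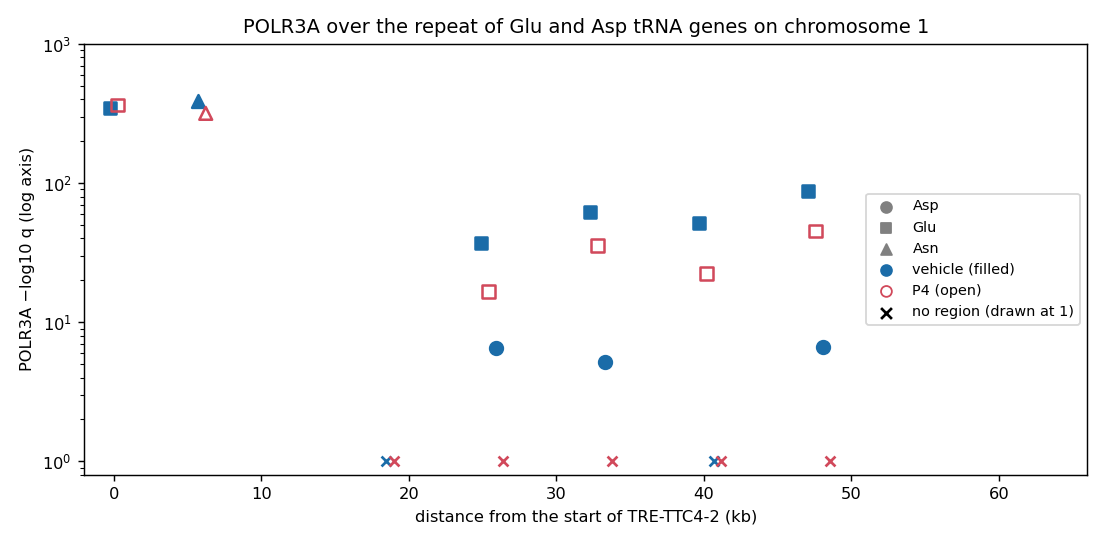
POLR3A −log10 q (log axis) against distance in kb from the start of TRE-TTC4-2 for 11 genes of cluster 1C, with squares for Glu, circles for Asp and triangles for Asn, filled for vehicle and open for P4. Crosses drawn at 1 mark genes with no region. In the repeat the Glu genes sit between 16.7 and 87.7 and the Asp genes at 6.64 or lower.

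The Asn genes, all with the anticodon GTT, had the most PR calls under vehicle. TRN-GTT2-6 (chromosome 19, 1383563 to 1383636) and TRN-GTT2-5 (chromosome 17, 38751781 to 38751854) had the highest POLR3A values, 572.3 and 504.6 under vehicle and 529.3 and 498.9 under P4. The POLR3A region at TRN-GTT2-6 also covered the Phe gene TRF-GAA1-6 in both lists. Its summit lay 92.5 bp from the midpoint of TRN-GTT2-6 under vehicle. Under P4 it lay 102.5 bp from that midpoint and 99 bp from that of the Phe gene. Of the 13 Asn genes in cluster 1B, 10 had POLR3A under vehicle and 8 under P4, and 5 had PR in both lists: TRN-GTT3-1, TRN-GTT2-7, TRN-GTT24-1, TRN-GTT2-1 and TRN-GTT25-1. These 5 genes had POLR3A values from 201.9 to 477.7 under vehicle, above those of the other Asn genes of the cluster, which reached 73.1. The PR value of TRN-GTT2-1 was 13.2 under vehicle and 23.3 under P4. TRN-GTT24-1 had 9.97 and 18.2, and TRN-GTT2-7 had 4.73 and 27.6. TRN-GTT25-1 had 4.16 and 10.9, and TRN-GTT3-1 had 4.59 and 5.22. Of these 5 genes, 4 held their P4 region in the shortened PR list, the exception being TRN-GTT3-1.

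Of the 5, all but TRN-GTT24-1 lay at a like distance from a gene of the NBPF family, protein-coding genes spread in copies over chromosome 1. TRN-GTT3-1 was 2050 bp from an end of NBPF15, TRN-GTT2-1 was 2055 bp from NBPF14, TRN-GTT25-1 was 2058 bp from NBPF19 and TRN-GTT2-7 was 2061 bp from NBPF20. TRN-GTT7-1 was 2033 bp from NBPF26 and had a POLR3A value of 4.89 under vehicle, no POLR3A region under P4 and no PR region. These distances were looked at after the values had been seen. Since they neighbour genes of 1 family, they are not independent sites. Outside cluster 1B, PR was at TRN-GTT2-6 in both lists (3.94 and 4.47), at TRN-GTT2-5 (5.25) and TRN-GTT2-4 (3.96) under P4 alone, and at TRN-GTT2-2 under vehicle alone (2.06). In the P4 list the nearest PR region to TRN-GTT2-2 lay 470 bp away, with 4.56.

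The Gln genes read CTG (13 genes) and TTG (6 genes). TRQ-TTG1-1 (chromosome 17, 49192528 to 49192599) and TRQ-CTG1-4 (chromosome 15, 65869062 to 65869133) had the highest POLR3A values of the Gln genes under vehicle, 589.0 and 584.7, with 541.5 and 524.3 under P4, where TRQ-CTG1-5 was highest with 554.3. All 9 Gln genes of the chromosome 6 cluster had POLR3A in both lists, with 60.5 to 485.4 under vehicle and 84.0 to 520.6 under P4. The top value in each list was that of TRQ-CTG1-3, whose region also covered the Leu gene TRL-CAA1-2. The summit of that region lay 20 bp from the Leu gene's midpoint under vehicle and 18 bp under P4. The 5 Gln genes of cluster 1B had 3.10 to 9.55 at 3 genes under vehicle and 5.50 to 11.1 at 3 genes under P4. Both ranges lay below those of the chromosome 6 cluster.

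PR was at 3 Gln genes in both lists. TRQ-CTG1-5 (chromosome 17, 8119752 to 8119823), which lies 769 bp from an end of HES7, had PR values of 14.9 and 70.2, the second strongest of the 68 genes. Its PR regions were 241 and 296 bp wide, held no other tRNA gene and peaked 32.5 and 66.5 bp off its midpoint. Its POLR3A region covered 4 tRNA genes, and the summit lay nearest to TRK-TTT3-5 in both lists. TRQ-TTG1-1 had PR values of 4.91 and 30.3, with summits 25.5 bp from the midpoint under vehicle and 597.5 bp under P4. TRQ-TTG3-2 (chromosome 6, 26311747 to 26311818) had 2.92 and 3.55 and shared its POLR3A region with TRQ-TTG3-1. PR was in the P4 list alone at TRQ-CTG1-4 (5.22) and TRQ-CTG1-2 (1.43).

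Genes with the same mature tRNA differed widely in POLR3A. The 68 genes carry 33 mature-tRNA numbers, and 11 of these are shared by several genes, 46 in all. The TRD-GTC2 set had 11 genes. Its 6 copies on chromosomes 6, 12 and 17 had POLR3A values from 429.7 to 594.9 under vehicle, and its 5 copies in cluster 1C had at most 6.64. The TRE-CTC1 set had 7 genes, with 553.4, 568.6 and 588.6 at 3 copies and 37.0 to 87.7 at the 4 in cluster 1C. Of the 8 TRN-GTT2 genes, 7 had 62.7 to 572.3 under vehicle, and TRN-GTT2-3 on chromosome 10 (22229509 to 22229582) had no region under vehicle and 10.3 under P4. Of the 5 TRQ-CTG1 genes, 4 had 445.3 to 584.7 under vehicle, and TRQ-CTG1-1 on chromosome 6 (18836171 to 18836242), outside that chromosome's cluster, had 4.89 under vehicle and no region under P4. The P4 values set the same copies apart. The values of TRD-GTC2-9, TRQ-CTG1-3 and TRQ-CTG1-5 come from regions whose summit lay on another tRNA gene. As for the repeat, the part played by reads that match several copies was not tested, here or in cluster 1B.

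**Figure D3:**
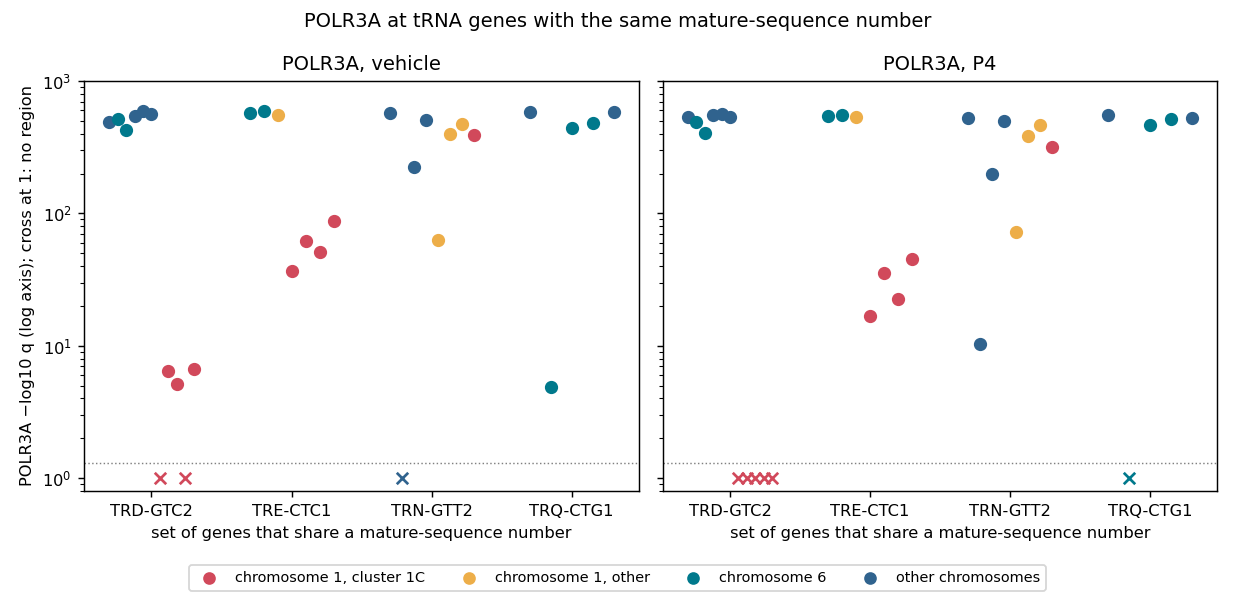
POLR3A −log10 q (log axis) under vehicle (left) and P4 (right) for the 4 largest sets of genes that share a mature-tRNA number, 1 point per gene, coloured by position, with a cross at 1 for no region. The TRD-GTC2 and TRE-CTC1 copies of cluster 1C lie below the copies elsewhere in both panels.

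PR lay mostly at genes with strong POLR3A. The 25 genes with PR under P4 had a median POLR3A value of 544.0 under vehicle, and the 33 genes with POLR3A and no PR under P4 had 62.7. In classes of POLR3A value chosen after the values had been seen, PR under P4 was at 15 of 16 genes with 500 or more, at 5 of 12 from 300 to 500 and at 4 of 8 from 100 to 300. It was at 0 of 9 from 20 to 100, at 1 of 13 under 20, which was TRE-TTC3-1, and at 0 of 10 without POLR3A under vehicle. The gene with 500 or more and no PR was TRE-CTC1-7. Under vehicle, PR was at 7, 4 and 3 genes of the top 3 classes and at none of the 32 genes below them. Over all tRNA genes, which include these 68, PR under vehicle was at 32.2%, 16.7% and 7.27% of the top 3 classes and at 2 of the 187 genes below them, 1.07%. PR under P4 was at 65.2% of genes with 500 or more, 38.9% from 300 to 500, 10.9% from 100 to 300 and 1.67% from 20 to 100.

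**Figure D4:**
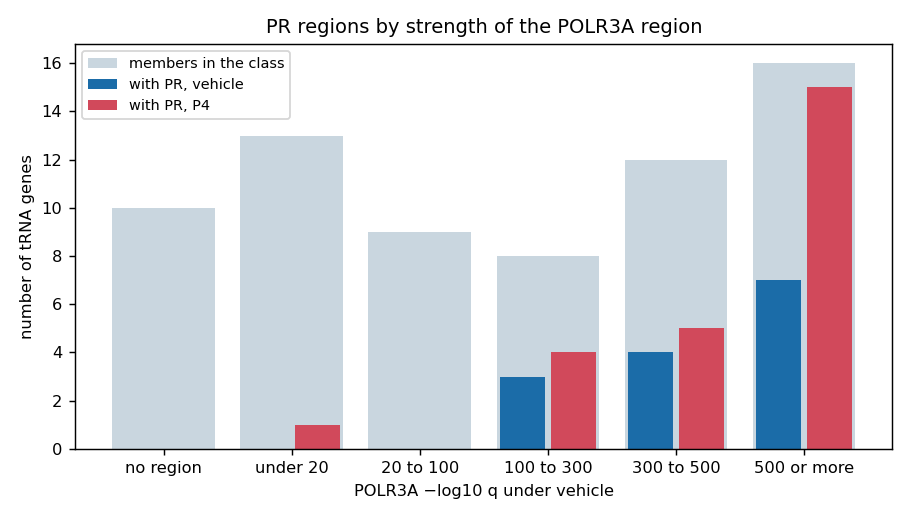
Number of the 68 genes (grey) in each class of POLR3A −log10 q under vehicle, with those carrying PR under vehicle (blue) and under P4 (red). In the class of 500 or more, 15 of 16 genes had PR under P4, and 0 of 9 in the class from 20 to 100.

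By their medians, POLR3A summits lay nearer to the gene's midpoint than PR summits did in both treatments. The median distance from the POLR3A summit to the gene's midpoint was 18.8 bp under vehicle and 17.5 bp under P4, with 52 of 58 and 47 of 53 summits within 100 bp. For all tRNA genes these medians were 19.0 and 18.5 bp. The POLR3A region covered a further tRNA gene at 13 of the 68 genes in each list, and at 5 in each list its summit lay nearer to that other gene. For PR the median distance was 71.0 bp under vehicle, with 8 of 14 within 100 bp, and 148.5 bp under P4, with 8 of 25. At 3 of the 25, TRD-GTC1-1, TRD-GTC2-10 and TRD-GTC2-11, the PR summit under P4 lay nearer to another tRNA gene. All tRNA genes with PR had medians of 158.0 and 186.2 bp, with 30.9% and 25.9% within 100 bp. The 5 Asn genes of cluster 1B had PR summits at most 74.5 bp from the midpoint under vehicle and at most 73.5 bp under P4. At the other genes it was 3 of 9 under vehicle and 3 of 20 under P4. Requiring the summit itself within 100 bp of the gene left PR at 8 genes under vehicle, 6 of them Asn genes, and at 12 under P4. At genes with both factors, the PR and POLR3A summits were a median of 105.0 bp apart under vehicle (3 to 555 bp) and 194.0 bp under P4 (17 to 617 bp).

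**Figure D5:**
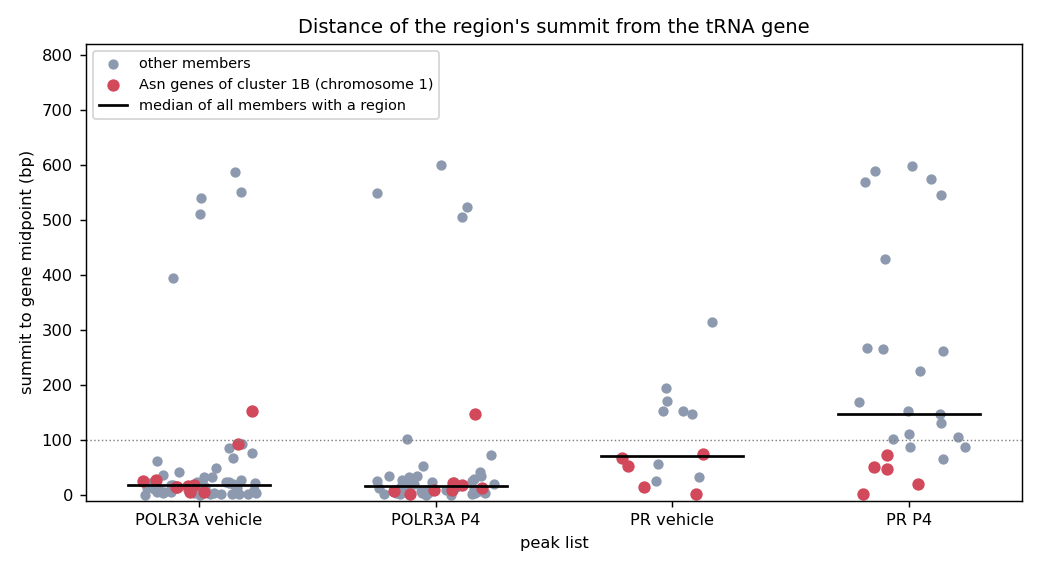
Distance in bp from the region's summit to the midpoint of the tRNA gene, 1 point per gene with a region in each of the 4 lists, with the Asn genes of cluster 1B in red, a bar at the median and a dotted line at 100 bp. POLR3A medians are 18.8 and 17.5 bp and PR medians 71.0 and 148.5 bp, and all red PR points lie under 100 bp.

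Some PR regions at these genes reached the promoter of a protein-coding gene. Of the 68 genes, 7 lay within 1 kb of an end of a protein-coding gene, and PR under P4 was at 4 of them and at 21 of the other 61. By a wider measure, a PR region under P4 within 1 kb of an end, 50.2% of all protein-coding genes had PR. The PR region at TRN-GTT2-6 reached the promoter window of NDUFS7, which encodes a subunit of mitochondrial complex I, in both lists. Under P4 the region at TRQ-CTG1-4 reached that of RAB11A, a small GTPase of recycling endosomes, and the region at TRN-GTT2-5 that of PSMB3, a proteasome subunit. None of these 3 windows held the half-site AGAACA or TGTTCT, which 14.8% of the 35116 windows hold on either strand. None held the full element (AGAACA, any 3 bases, TGTTCT), which 1 window holds (0.00285%). The search covered the windows alone. At TRQ-CTG1-4 and TRN-GTT2-5 the PR summit under P4 lay outside the window, so the sequence under it was not searched. The vehicle PR region of TRN-GTT2-6 is shown because it lies between the tRNA gene and NDUFS7 and covers neither. It starts 45 bp past the tRNA gene and ends 36 bp before the NDUFS7 start of the table. Capitals mark the 10 bases on each side of the summit and the summit base.
PR vehicle region beside TRN-GTT2-6 (chr19:1383681-1383871, plus strand): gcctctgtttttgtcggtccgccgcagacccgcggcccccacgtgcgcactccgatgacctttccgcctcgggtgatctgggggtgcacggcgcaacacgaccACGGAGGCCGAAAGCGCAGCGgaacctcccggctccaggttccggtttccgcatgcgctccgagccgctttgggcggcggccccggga
This region of 191 bp had a −log10 q of 3.94 and a fold of 3.51. The P4 region there was 663 bp wide, reached the tRNA gene and had a value of 4.47 and a fold of 3.60.

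POLR3A was in 1 list alone at 9 genes, with values of at most 11.1. Under vehicle alone it was at 7 genes, 10.3%, beside 3.26% of all tRNA genes: TRQ-CTG3-1 (7.69), TRD-GTC2-5 (6.64), TRD-GTC2-2 (6.48), TRN-GTT9-1 (5.88), TRD-GTC2-3 (5.14), TRN-GTT7-1 (4.89) and TRQ-CTG1-1 (4.89). Under P4 alone it was at 2 genes, 2.94%, beside 2.80% of all tRNA genes, TRQ-CTG4-2 (11.1) and TRN-GTT2-3 (10.3). Of these 9 genes, 7 lie in clusters 1B and 1C. No region of any list was at 8 genes, 11.8%, beside 14.7% of all tRNA genes. They were TRN-GTT9-2, TRN-GTT10-1, TRN-GTT27-1 and TRQ-CTG7-1 in cluster 1B, TRD-GTC2-1 and TRD-GTC2-4 in cluster 1C, TRE-TTC4-1 in cluster 1A and TRQ-TTG4-1 on chromosome 6 (145182723 to 145182794). Regions of all 4 lists were at 13 genes, 19.1%, beside 11.0% of all tRNA genes.

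The enzymes that charge and modify these tRNAs were read over the 1 kb around either end of the gene. POLR3A was there at 7 of 13 genes under vehicle, beside 30.8% of all protein-coding genes, and at 9 under P4, beside 33.6%. PR was at 3 genes under vehicle, beside 23.9%, and at 11 under P4, beside 50.2%. Among the synthetases, EPRS1, which joins Glu and Pro to their tRNAs, was in all 4 lists, with −log10 q from 2.62 to 3.54. NARS1, for Asn, had PR (6.57) and POLR3A (2.38) under P4 alone, and QARS1, for Gln, was in no list. Of the modifying enzymes, TRMT112, a partner of several tRNA methyltransferases, had the strongest PR regions, 12.7 and 45.9. POLR3A values at the 13 genes were at most 5.07 under vehicle and 6.34 under P4, against medians of 264.4 and 317.2 at the 68 tRNA genes.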

How the data were processed

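ChIP-seq of PR and POLR3A in T47D cells was read from 4 narrowPeak lists, 1 for each antibody and treatment. Per the submitters' processing notes, cutadapt, Bowtie2, MACS2 and hg38 were used. Versions, the control and the pooling of replicates are not given in the sources used here. The deposited values used were each region's fold enrichment (a ratio), its −log10 q-value and its summit. The highest q-value was 0.0497. The files hold no read counts, so depth is unknown.

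tRNA genes came from RefSeq's GRCh38.p14 gene table. The table lists alternate sequences after each chromosome, so genes were kept up to the first fall in start position, which left 58415 of 59792. The table gives no strand, so distances are unsigned. The strand of printed genes was read from the anticodon, found between T and A. The strongest region by −log10 q reaching a gene ± 100 bp gave the gene's value, and its percentile is the share of the list below it. Clusters join members at most 5 Mb apart, with the 2 around the chromosome 1 centromere merged as 1B. Overlap counts equalled those of bedtools 2.31.1 in 4 of 4 lists. Simulated regions placed at 200 tRNA genes were all called.

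Genes named with values are the 2 strongest POLR3A genes of each isotype, those with PR under vehicle, the 10 with the strongest PR under P4, and those with POLR3A under 1 treatment. Others were named after their values were seen. The members and lists were chosen with earlier results of these data known. No statistical test was run, since replicates share a list. Analyses used Python 3.11.15 and pandas 2.3.3.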

Additional observations from a re-analysis of the deposited data

How the results depend on the processing

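The POLR3A counts stayed within 1.5 times under every alternative run, from 46 to 58 genes under vehicle and from 48 to 53 under P4, though at a −log10 q of at least 10 they were 46 and 50, with P4 the higher. The PR counts moved more. With regions of a −log10 q of at least 5, PR was at 4 genes under vehicle and 16 under P4, the counts with both factors were 4 and 16, and 0 genes lost PR. At 10 or more, PR was at 3 and 8 genes, both factors were at 3 and 8, and 5 genes gained and 0 lost PR. With the summit within 100 bp of the gene, PR was at 8 and 12 genes and both factors at 7 and 10, with 6 gained and 2 lost. With both lists of an antibody at the same length, PR and both factors were at 10 genes under P4, with 3 gained and 7 lost. With 500 bp around the gene, PR was at more genes, 19 under vehicle and 31 under P4, and 0 genes lost PR. Fewer rows pass a higher limit, and the cause of the other shifts was not tested. Over the gene body alone, PR was at 13 and 21 genes, and as 63 loci of genes within 1 kb the PR counts were 14 and 25. Median percentiles moved at most from 37.8 to 45.1, for PR under vehicle ranked by fold. Of 30 genes named by rule, 27 had a region in as many lists with 500 bp around the gene, 28 over the gene body, 18 and 7 at the limits of 5 and 10, 16 by summit and 21 at equal length. No paired analysis was possible because the replicates of a group share 1 list, and no replicate could be left out. Depth could not be judged.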

Other observations

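Regions were also read at 28 pseudogenes of these tRNAs, with symbols of the same form. No share over other pseudogenes was taken. POLR3A was at 3 of them under vehicle, 10.7%, and at 2 under P4, 7.14%. The strongest was TRQ-CTG9-1, within the span of cluster 1B (chromosome 1, 148353561 to 148353632), with −log10 q of 19.7 and 42.1, both above the values of every Gln gene of that cluster. PR was at 0 pseudogenes under vehicle and at 3 under P4, TRD-GTC10-1 (6.71), TRE-TTC10-1 (4.07) and TRQ-TTG8-1 (3.36). None of these 3 had POLR3A, while all 25 of the genes with PR under P4 had it. Over all tRNA genes, 111 of the 112 with PR under P4 had it.

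Some genes missed a PR call by position. The closest was TRQ-CTG4-1, 105 bp from a P4 region with a −log10 q of 2.16, while the PR regions at TRD-GTC2-6 and TRN-GTT2-4 lay 66 and 53 bp away and were counted. The strongest region just outside was a vehicle region 243 bp from TRD-GTC2-9, with 133.7 and a fold of 25.1. In the P4 list TRE-TTC1-2, 577 bp from an end of ELF1, had a PR region 342 bp away with 20.5. These genes were chosen after their values were seen.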
